A study of Homo sapiens with 5 samples.

Results

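GUCY1A1 encodes the α1 subunit of soluble guanylate cyclase, the intracellular receptor for nitric oxide (NO), and EDN1 encodes the precursor of endothelin-1, a vasoconstrictor peptide. They are 2 of the 2694 genes in the deposited values and were chosen by name, because their values in hypertrophic medium moved in opposite directions relative to growth medium. Total RNA was sequenced from TC28a2, an immortalized human chondrocyte line that the labels describe as normal chondrocytes from costal cartilage. The growth medium group (GM, n = 2) was kept in high-glucose DMEM with 10% fetal bovine serum. The hypertrophic medium group (HM, n = 3) received the same base with 1% serum, 1% insulin-transferrin-selenium, the growth factors BMP-2 (100 ng/ml) and GDF-5 (10 ng/ml), thyroid hormone T3 (1 μM), the glucocorticoid dexamethasone (10 nM), ascorbic acid (50 μg/ml) and β-glycerophosphate (10 mM), and was replaced every 2 days. RNA of both groups was taken on day 5, and an antibiotic–antimycotic solution was present in both media. The media differ in serum and in all of these supplements at once, so the part of any single component cannot be told apart, and the results hold for 1 cell line.

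In vessels, NO binds the heme of soluble guanylate cyclase, a dimer of an α and a β subunit, and the cyclic GMP (cGMP) it makes relaxes smooth muscle through cGMP-dependent protein kinases until phosphodiesterases break it down. Endothelin-1 acts in the opposite sense. It is cut from its precursor by furin-type proteases and endothelin-converting enzyme, and binds the receptors EDNRA and EDNRB, which signal through Gq proteins and phospholipase C. Both systems are also known in cartilage, where cGMP made by the receptor for C-type natriuretic peptide acts through the kinase PRKG2 on growth plate chondrocytes, and where articular chondrocytes can release NO and endothelin-1.

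GUCY1A1 lies on chromosome 4 of GRCh37, the build of hg19 that the authors aligned to, from 156587878 to 156658211 on the plus strand, and its canonical transcript in GENCODE 44 has 10 exons with 9205 exonic bases. An lncRNA gene annotated on the same strand (ENSG00000260244) overlaps the 3′ end of GUCY1A1, so reads there cannot be assigned to only 1 of the pair. EDN1 lies on chromosome 6 from 12290594 to 12297427, also on the plus strand, with 5 exons and 2035 exonic bases in the canonical transcript, and no annotated gene overlaps it. The gene for the β1 subunit, GUCY1B1, follows GUCY1A1 on the same strand with 21932 bases between them. The 250 bases before the RefSeq start site of each gene are shown because the subunit genes had higher values in HM and EDN1 a lower one. The RefSeq windows matched GRCh37 letter by letter, and for genes with several RefSeq starts (2 for GUCY1A1 and 3 for EDN1) the one at the start of the canonical transcript was taken. For GUCY1A1 this start lies 122 bases inside the GENCODE gene, which begins with another transcript. Capitals mark every match, on either strand, to the 6 motifs searched.
GUCY1A1, chr4:156587750-156587999, plus strand: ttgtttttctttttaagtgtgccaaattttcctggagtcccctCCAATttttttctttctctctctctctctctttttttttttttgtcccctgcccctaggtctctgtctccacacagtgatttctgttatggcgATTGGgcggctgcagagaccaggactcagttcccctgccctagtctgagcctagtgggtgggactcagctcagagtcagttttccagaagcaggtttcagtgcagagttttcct
GUCY1B1, chr4:156679923-156680172, plus strand: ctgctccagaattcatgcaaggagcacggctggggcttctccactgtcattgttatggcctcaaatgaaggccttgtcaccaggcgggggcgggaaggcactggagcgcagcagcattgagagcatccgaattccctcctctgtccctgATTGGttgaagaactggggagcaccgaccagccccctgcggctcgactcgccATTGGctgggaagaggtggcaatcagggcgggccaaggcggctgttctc
EDN1, chr6:12290344-12290593, plus strand: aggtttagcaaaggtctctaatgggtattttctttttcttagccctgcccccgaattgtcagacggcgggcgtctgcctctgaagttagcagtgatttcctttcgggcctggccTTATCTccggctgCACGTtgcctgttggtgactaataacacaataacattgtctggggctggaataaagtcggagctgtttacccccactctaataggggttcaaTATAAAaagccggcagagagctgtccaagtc

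The search covered TATAAA, the core of the box that positions the start of transcription, and CCAAT, which the factor NF-Y binds. It also covered AGATAA, a site of the GATA factors, and ACGTG, a core that hypoxia response elements share with some E-boxes. The last were TGANTCA, a site of AP-1, and AGGTCA, a half-site of nuclear receptors. No motif of this set contains another. GUCY1A1 and GUCY1B1 held CCAAT in 2 places each, at positions -207 and -114 from the start site in GUCY1A1 and at -101 and -49 in GUCY1B1, counted to the first base of each match with the last base before the start as -1. Of the 35116 RefSeq windows of the same length, 32% held this motif at least once and 9.53% at least 2 times. The window of GUCY1A2, the third subunit gene in the files, lies on another chromosome and is not shown. It had 1 match to CCAAT and 3 to ACGTG, with overlapping matches counted apart, and none to the other motifs. EDN1 had TATAAA at -31, AGATAA on the minus strand at -136 and ACGTG on the minus strand at -123, and these motifs occurred in 10.7%, 9.17% and 18.5% of all windows. TGANTCA and AGGTCA, with 6.57% and 12.1% of all windows, were not found in these 3 windows. Only exact matches were sought, so AP-1 or receptor sites with other letters are not shown to be absent. The matches describe letters and not bound sites.

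All values are as the authors deposited them, which the paper's methods describe as log2-transformed and RLE-normalized read counts. RLE (relative log expression) divides a library by the median of its gene-wise ratios to a reference library. A difference is the HM mean minus the GM mean on this log2 scale. GUCY1A1 was 8.56 and 8.55 in GM replicates 1 and 2, and 11.54, 11.01 and 11.84 in HM replicates 1, 2 and 3. All 3 HM libraries lay above both GM libraries, with a gap of 2.45 between the closest libraries of the media. The mean went from 8.55 ± 0.010 (SD, n = 2) to 11.47 ± 0.42 (SD, n = 3), a difference of 2.91, the first of the 2694 genes by increase. Its SD in HM was wider than that of 94.7% of the genes, whose median was 0.16. Without each HM library in turn the difference of GUCY1A1 stayed between 2.72 and 3.14. As the gene was chosen for this difference, no test is given for it.

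EDN1 was 10.92 and 10.90 in GM replicates 1 and 2, and 8.09, 8.28 and 8.00 in HM replicates 1, 2 and 3. Here the 3 HM libraries lay below both GM libraries, and 2.62 separated the closest ones. The mean went from 10.91 ± 0.018 (SD, n = 2) to 8.13 ± 0.14 (SD, n = 3), a difference of -2.79, the fifth of the genes by decrease. Its HM libraries were closer together than those of GUCY1A1, and 41.4% of the genes had a smaller SD in HM. The gene was also chosen for its difference, so EDN1 has no test either. In these bulk libraries, a change in every cell and a change in a share of the cells cannot be told apart.

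On a plain log2 scale, the value of one gene minus that of another in the same library is free of a library-wide factor. The sources used here do not state that scale, and it is doubtful. The smallest listed difference was 0.214 at mean values under 5 and 0.549 at 10 or more. GUCY1A1 minus EDN1 was -2.36 and -2.35 in GM replicates 1 and 2, and 3.45, 2.74 and 3.83 in HM replicates 1, 2 and 3. The order of the genes on the deposited scale was thus the reverse in the HM libraries, and the mean moved by 5.70. Read counts, which the paper's methods name as the measure, are not divided by gene length. The sign thus does not show which transcript was more abundant. HM replicate 2 had the lowest GUCY1A1 and the highest EDN1, and HM replicate 3 the highest GUCY1A1 and the lowest EDN1. Of the 1707 genes with a higher mean in HM, 6.62% had their lowest HM value in replicate 2 and their highest in replicate 3, as GUCY1A1 had. The pattern of EDN1 was shared by 19.8% of the 987 genes with a lower mean.

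**Figure D1:**
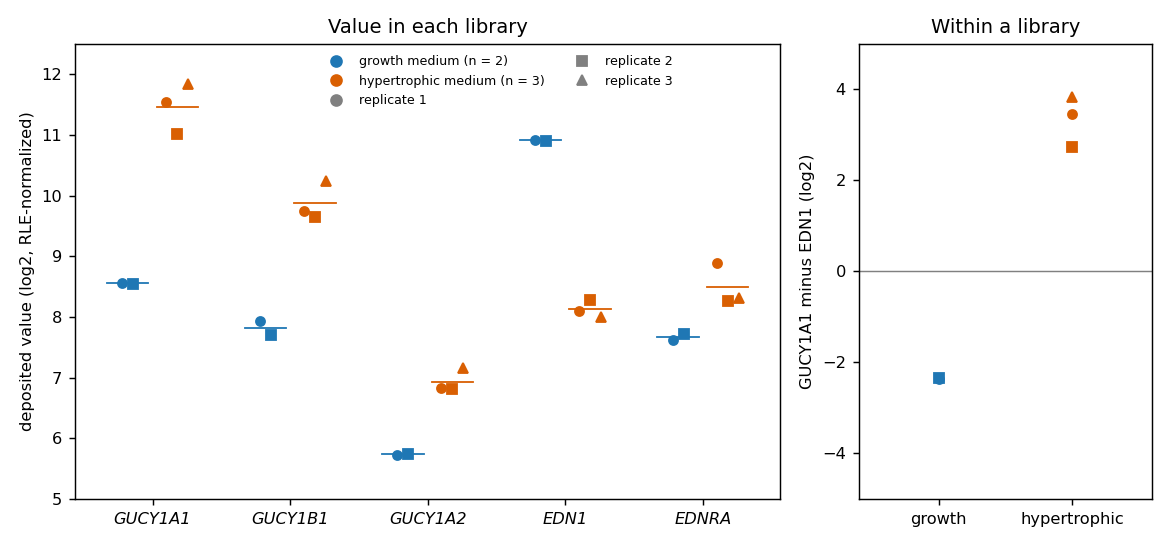
Deposited log2 value of 5 genes in each library (left, horizontal lines are group means) and GUCY1A1 minus EDN1 in each library (right). Blue is growth medium (n = 2), orange is hypertrophic medium (n = 3), and the marker shape gives the replicate. GUCY1A1, GUCY1B1 and GUCY1A2 were above growth medium in each hypertrophic library and EDN1 was below it, and the difference on the right crossed 0, from -2.36 and -2.35 to between 2.74 and 3.83.

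The other genes were compared between the media with limma over all 2694 genes, with Benjamini-Hochberg adjustment, and a gene was called when its adjusted p was under 0.05 and its difference was at least 1 in size. The files hold the genes that the authors had called different between these media, and not all genes measured. For these the paper states a log2 fold change beyond 2 in size and a false discovery rate under 0.05. On the deposited scale only 57 genes had an adjusted p under 0.05 (limma) and a difference of at least 2. The scale of the paper's cutoff is thus unclear. A gene not called here has not failed the study's own criterion. No listed gene had a difference nearer to 0 than 0.214, 99.0% of all listed genes had an adjusted p under 0.05 (62.5% higher and 36.5% lower), and in 99.0% no HM library overlapped a GM library. Neither of these properties sets a pathway gene apart. The smallest difference was 0.214 among genes with a mean value under 5 and 0.549 among those at 10 or more, so sizes at low and high values are not on an equal footing. With the requirement on size, 18.9% of all genes were called (11.8% higher and 7.05% lower). Genes that are absent from the files may be expressed at any level. The study's methods call its replicates biological, and the labels do not say whether these libraries came from separate cultures. A p measures the spread between these libraries.

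The subunit genes of soluble guanylate cyclase rose in HM together with GUCY1A1. Of the 4 symbols looked up for this family, 3 were in the files, and GUCY1B2 was not. GUCY1B1 and GUCY1A2, which encodes the alternative α2 subunit, were both called, beside 18.9% of all listed genes. GUCY1B1 was 7.94 and 7.71 in GM and 9.75, 9.65 and 10.25 in HM replicates 1, 2 and 3, a difference of 2.06 (standard error 0.195, adjusted p = 5.45e-05, limma). GUCY1A2 was 5.73 and 5.74 in GM and 6.83, 6.81 and 7.16 in HM, a difference of 1.20 (standard error 0.161, adjusted p = 0.000276, limma). For both, no HM library overlapped a GM library, as in 99.0% of all listed genes. As in GUCY1A1, HM replicate 2 was the lowest and HM replicate 3 the highest in each of them. When each library was centred on its median, GUCY1A2 was at 0.85 and below the size required, with an adjusted p of 0.00234 (limma), while GUCY1B1 remained past it. This median is taken over the listed genes alone, 1707 higher and 987 lower in HM, so centring also removes part of that imbalance. Median centring and quantile normalization are thus not neutral scalings here, and calls lost or gained under them are a description.

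The differences of the subunit genes were of unequal size on the deposited scale. That of GUCY1A1 is the size by which the gene was chosen, so its lead over the others is a description. GUCY1A1 minus GUCY1B1 was 0.62 and 0.84 in GM and 1.80, 1.36 and 1.59 in HM replicates 1, 2 and 3, so the mean moved by 0.85. GUCY1B1 minus GUCY1A2 moved by 0.86, from 2.21 and 1.97 in GM to 2.92, 2.84 and 3.08 in HM.

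Of the 19 genes of NO synthesis and its control, 6 were in the files, and 1 of the 6 was called, CAV1, which was lower. Of all listed genes, 18.9% were called. CAV1, the caveolin that binds and restrains endothelial NO synthase, was 12.55 and 12.65 in GM and 10.75, 11.30 and 11.78 in HM, and fell by 1.32 (adjusted p = 0.00112, limma, with a standard error of 0.245). The inducible NO synthase NOS2 was 5.43 and 5.40 in GM and 4.98, 4.95 and 4.99 in HM, a difference of -0.44 at a low value. ARG2, an arginase that uses the same substrate, was 10.26 and 10.30 in GM and 9.25, 9.18 and 9.56 in HM. Its difference of -0.95 reached -1.07 without HM replicate 3 and -1.30 with median centring, both past the size required. Of the enzymes that recycle citrulline to arginine, neither was called, with 0.84 for ASS1 (SD in HM 0.52, n = 3) and -0.60 for ASL. ASS1 reached 1.08 without HM replicate 2 and was then past the size required, but was 0.57 without HM replicate 1. It was 0.50 with median centring and 0.61 with quantile normalization (adjusted p = 0.0674 and 0.0715, limma). GCHFR, the regulator of the cofactor enzyme GTP cyclohydrolase, had a difference of 0.54, which was 0.32 without HM replicate 1 and 0.19 with median centring (adjusted p = 0.0835 and 0.408, limma). NOS1 and NOS3 were not among the listed genes.

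None of the 14 genes of the natriuretic peptides and membrane guanylate cyclases was in the files, among them NPPC and NPR2 of the C-type natriuretic peptide system. Of the 32 genes that respond to, break down or export cGMP, 6 were listed and 3 of these were called, beside 18.9% of all listed genes. PDE1C, a calcium- and calmodulin-activated phosphodiesterase that hydrolyses both cGMP and cAMP, was 11.28 and 11.17 in GM and 9.04, 8.91 and 8.94 in HM. It fell by 2.26 (adjusted p = 4.94e-06, limma, with a standard error of 0.126), and its 3 HM libraries lay close together (SD 0.070). PDE3A, a cAMP phosphodiesterase that cGMP inhibits, went from 6.07 and 6.15 to 7.23, 7.59 and 8.11, a rise of 1.53 (standard error 0.237, adjusted p = 0.000554, limma). PDE11A, which hydrolyses both nucleotides, was 6.78 and 6.74 in GM and 7.32, 7.81 and 8.29 in HM, a rise of 1.05 (standard error 0.252, adjusted p = 0.00378, limma). The call for PDE11A was lost without HM replicate 3 (0.80), with median centring (0.70) and with quantile normalization (0.87).

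The kinase gene PRKG2 was 6.52 and 6.41 in GM and 8.07, 6.92 and 6.76 in HM replicates 1, 2 and 3, so 1 library carried much of its difference of 0.79 (adjusted p = 0.0443, limma). It was 0.38 without HM replicate 1 and 1.03, past the size required, without HM replicate 3, while median centring gave 0.44 (adjusted p = 0.208, limma). PDE9A, a cGMP-specific phosphodiesterase, had the same pattern, with 6.53 in HM replicate 1 against 5.79 and 5.69 in the others, and its difference of 0.43 had an adjusted p of 0.1 (limma) and was 0.17 without HM replicate 1. PDE1B, a relative of PDE1C, had a difference of 0.48, which was 0.13 with median centring (adjusted p = 0.439, limma).

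In the endothelin system, 3 of 10 genes were listed, and EDN1 is one of them. MME, the membrane metalloendopeptidase neprilysin, which degrades endothelins and natriuretic peptides, was 9.22 and 9.31 in GM and 8.47, 8.13 and 7.95 in HM. It fell by 1.08 (adjusted p = 0.000711, limma, with a standard error of 0.178), and by 0.97 without HM replicate 3, which is below the size required. The receptor gene EDNRA was 7.62 and 7.71 in GM and 8.89, 8.26 and 8.32 in HM, a difference of 0.82 (standard error 0.205, adjusted p = 0.00444, limma) that did not reach the size required. It was 0.48 with median centring and 0.52 with quantile normalization. EDN2, EDN3, EDNRB, ECE1 and ECE2 were not among the listed genes.

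Below the receptors, 3 of 26 genes were listed. PLCB4, a phospholipase C that Gq proteins activate, was 13.17 and 13.08 in GM and 12.40, 11.82 and 11.73 in HM, and fell by 1.14 (adjusted p = 0.000729, limma, with a standard error of 0.189). The arrestin genes ARRB1 and ARRB2, whose products desensitize such receptors, had differences of 0.72 and 0.69 and were not called. Of the 23 genes of transcription factors known to act on EDN1, 6 were listed, and FOS was the only one called, beside 18.9% of all listed genes. FOS went from 8.42 and 8.28 in GM to 10.14, 9.65 and 9.52 in HM, a rise of 1.42 (standard error 0.192, adjusted p = 0.000295, limma). JUN, its partner in AP-1, was 12.63 and 12.65 in GM and 11.60, 11.68 and 11.80 in HM, a difference of -0.95 that was past the size required under median centring (-1.30) and quantile normalization (-1.05). WWTR1, EPAS1, FOXO1 and FOSB had differences of 0.77, 0.63, 0.66 and 0.57. With median centring WWTR1 was at 0.43. EPAS1, FOXO1 and FOSB were then at 0.29, 0.31 and 0.22 (adjusted p = 0.107, 0.0969 and 0.262, limma).

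Of 36 genes of other vasoactive peptides and their receptors, 8 were listed and 3 were called, beside 18.9% of all listed genes. ADM, the precursor of the vasodilator adrenomedullin, was 12.22 and 12.27 in GM and 10.60, 10.52 and 10.65 in HM, and fell by 1.65 (standard error 0.113, adjusted p = 1.16e-05, limma). AGT, the angiotensin precursor, rose by 1.13 and BDKRB2, the bradykinin B2 receptor, by 1.08. Neither kept its call under median centring, where they were at 0.78 and 0.74, or under quantile normalization, with 0.93 and 0.63, and AGT came to 0.9996 without HM replicate 1. VEGFA was at -0.78, and ACE, ADM2, RAMP2 and BDKRB1 lay between 0.42 and 0.63. ADM2 was at 0.27 without HM replicate 1, BDKRB1 at 0.35 without GM replicate 2, and VEGFA was past the size required with median centring (-1.12). Of 17 prostanoid genes, 4 were in the files, and PTGFR, the prostaglandin F receptor, was the only one called. PTGFR went from 8.39 and 8.38 in GM to 11.27, 10.00 and 10.17 in HM, a rise of 2.096 (standard error 0.320, adjusted p = 0.000523, limma). The enzyme genes PTGES and PTGIS had differences of 0.80 and 0.57, and that of PTGIS (adjusted p = 0.0632, limma) was 0.27 without HM replicate 3. HM replicate 1 was the highest for PTGFR and for PTGER4, a prostaglandin E receptor gene whose difference was 0.997. The difference of PTGER4 was 0.59 without HM replicate 1, and it was past the size required without GM replicate 1 (1.05), HM replicate 2 (1.25) or HM replicate 3 (1.15).

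Over the 9 pathway lists, 39 of 181 genes were in the files, and without GUCY1A1 and EDN1 13 of 37 were called, 8 higher and 5 lower. This is 35.1% of them beside 18.9% of all genes, and their median difference was 0.63 beside 0.56 over all genes without these members. The lists were written with results of these data known, so the shares are a description. Median centring lowers every difference by 0.35, and the split of the called pathway genes was then 4 higher and 8 lower, against 5 and 7 with quantile normalization. Over all genes the split went from 318 higher and 190 lower to 120 and 565, and to 150 and 398. Both scalings are computed over the listed genes alone, most of them higher in HM, so they are not neutral. Under both scalings GUCY1A1, GUCY1B1, PDE3A, PTGFR and FOS kept a difference above 1, and EDN1, PDE1C, ADM, PLCB4, CAV1 and MME one below -1.

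**Figure D2:**
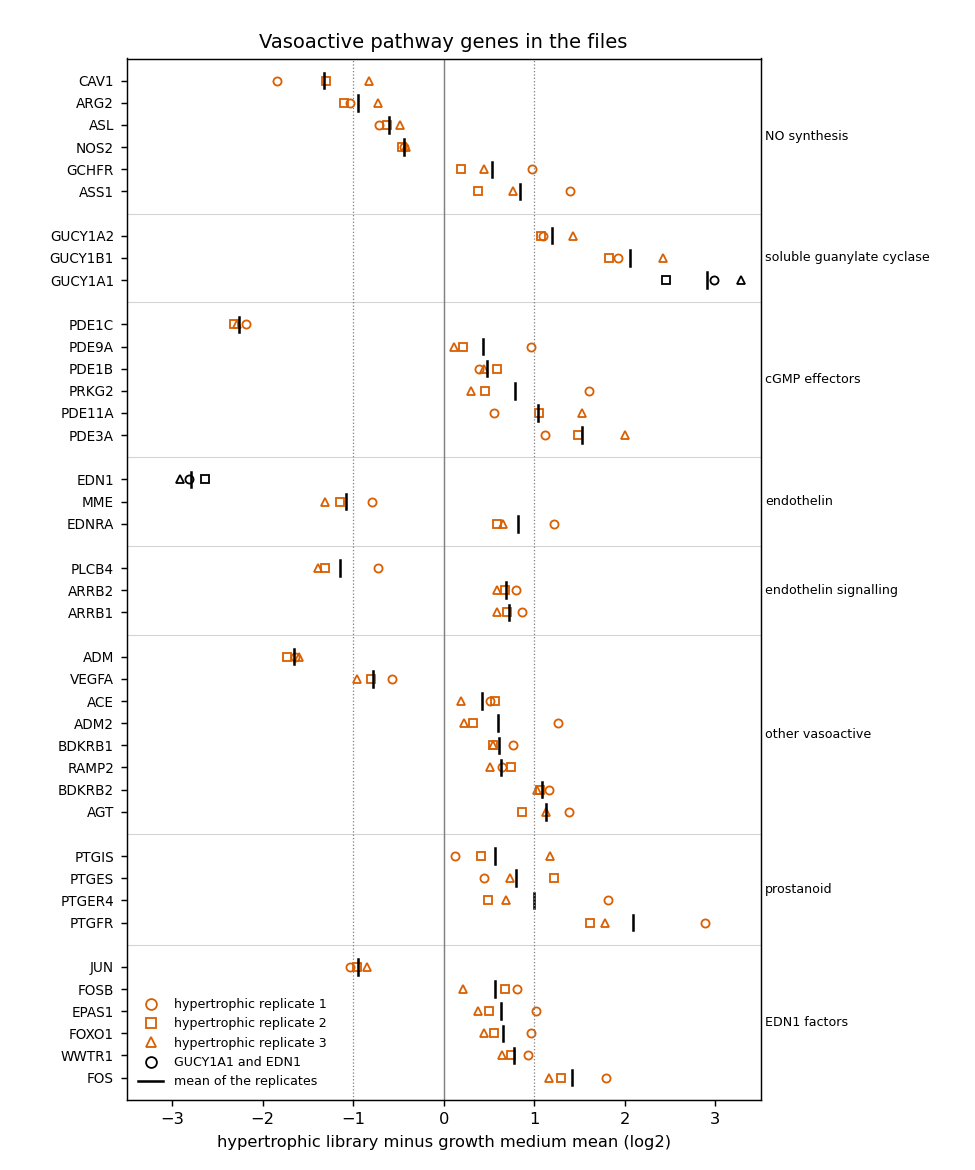
Each hypertrophic library minus the growth medium mean (log2) for the 39 pathway genes in the files, grouped by list. Marker shape gives the replicate, black bars are the mean of the 3 replicates, black markers are GUCY1A1 and EDN1, and dotted lines mark a difference of 1. The 3 soluble guanylate cyclase genes lie to the right of the dotted line in each replicate, and EDN1, PDE1C and ADM to the left.

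**Figure D3:**
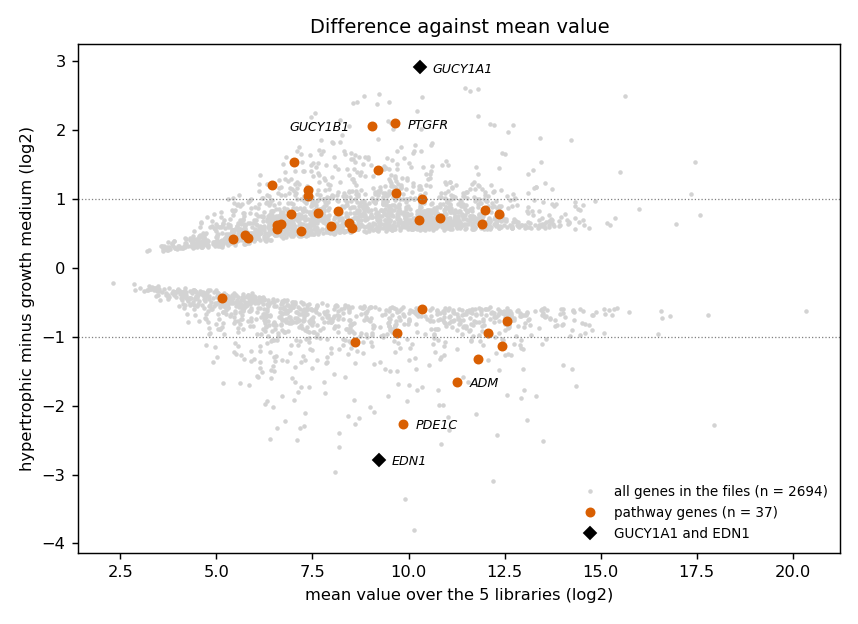
Hypertrophic minus growth medium mean against the mean value over the 5 libraries, both log2, for the 2694 genes in the files (grey), the 37 pathway genes (orange) and GUCY1A1 and EDN1 (black diamonds). Dotted lines mark a difference of 1. GUCY1A1 is the highest point at 2.91, EDN1 is at -2.79, and the empty band around 0 widens from low to high values.

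The genes most like each member were taken as the 5 with the smallest Euclidean distance to it over the 5 libraries, after the GM mean of each gene was subtracted. For GUCY1A1 these were C7, a terminal complement component (distance 0.77), the fibril-associated collagen COL14A1 (0.77), the apolipoprotein APOE (0.87), the heparan sulfate endosulfatase SULF2 (0.93) and HEY1, a Notch target (0.93). Their differences lay between 2.48 and 2.59, all smaller than that of GUCY1A1. C7 was also lowest in HM replicate 2 and highest in HM replicate 3, with 9.89, 9.58 and 10.03 in replicates 1, 2 and 3.

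The genes nearest to EDN1 lay closer, and 4 of the 5 are described. PTPRB, an endothelial receptor phosphatase, had a distance of 0.34, followed by the keratin pseudogene KRT87P (0.50), the cytokine IL1B (0.54) and the sarcomere protein gene MYPN (0.59). Their differences ran from -2.96 for KRT87P, whose reads can be shared with similar keratin genes, to -2.49 for IL1B. PTPRB had the same order of HM libraries as EDN1, with 7.10, 7.39 and 6.97 in replicates 1, 2 and 3. All of these measures come from the contrast by which the members were chosen, and a large difference alone brings genes near.

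**Figure D4:**
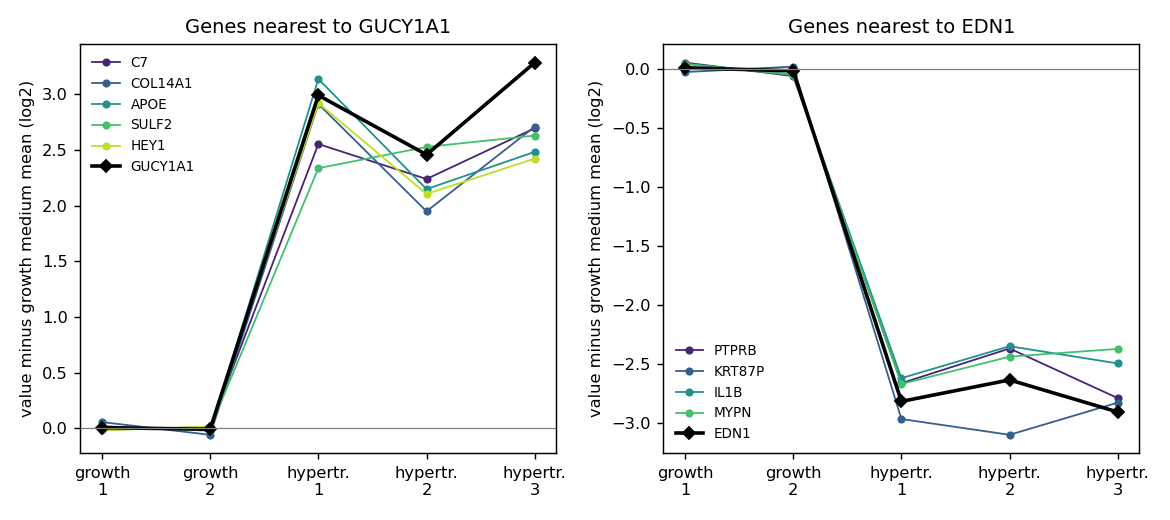
Value minus the growth medium mean (log2) in the 5 libraries for GUCY1A1 (left) and EDN1 (right), in black, and for the 5 genes nearest to GUCY1A1 and 4 of the 5 nearest to EDN1 by Euclidean distance. Lines join the libraries of a gene to show its profile and carry no order in time. GUCY1A1 lies above its nearest genes in hypertrophic replicate 3, and PTPRB follows EDN1 most closely, with a distance of 0.34.

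Around GUCY1A1, 8 protein-coding genes were annotated within 1 Mb, and 2 of these were in the files, GUCY1B1 and CTSO. CTSO, a cathepsin gene on the minus strand 184520 bases past the end of GUCY1A1, rose by 1.09 (standard error 0.152, adjusted p = 0.000343, limma), and was at 0.74 under median centring. Around EDN1, 1 of 6 protein-coding genes was listed. ADTRP, whose product regulates tissue factor pathway inhibitor, lies 483314 bases before EDN1 and had a difference of -0.80 (adjusted p = 0.000475, limma, with a standard error of 0.120), and reached -1.15 under median centring. The neighbouring genes HIVEP1 and PHACTR1 were not listed. The symbol SNORA67, with a difference of -0.58, also names a site in this window, but RefSeq places the gene on another chromosome.

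Cell type markers were looked up, but the files hold only genes called different between the media. A listed marker shows a change, and an absent one says nothing about its expression, so the cell type cannot be checked this way. Of 15 chondrocyte markers, SOX9, ACAN, COL2A1, COL9A2 and COL9A3 were in the files, and the mean of their values was 9.06 to 9.08 in GM and 10.02 to 10.38 in HM. All 5 had a higher mean in HM and 4 were called higher, beside 11.8% of all listed genes. RUNX2, IHH and COL10A1 were not listed, and MMP13 was the only 1 of 8 hypertrophic markers that was, with a difference of 0.70. GUCY1A1 and EDN1 are also known from vessel cells, so markers of those cells stand here beside them. Of 13 smooth muscle and pericyte markers, 6 were listed, with a mean of 10.78 to 10.79 in GM and 10.77 to 11.11 in HM. ACTA2 and NOTCH3 rose by 1.56 and 2.07, CNN1 fell by 1.32, MYOCD fell by 1.57, and TAGLN and PDGFRB were at -0.81 and 0.95, and TAGLN was past the size required with median centring (-1.16). MYH11, DES and RGS5 were not listed. Of 9 endothelial markers, 5 were listed, with a mean of 5.96 to 6.00 in GM and 5.85 to 5.92 in HM. TEK rose by 1.39, CDH5 fell by 1.19 and TIE1 fell by 1.51, while CLDN5 and ERG were at 0.49 and 0.31 and not called, so 3 of the 5 had a higher mean in HM. Under median centring ERG was at -0.037. PECAM1 and VWF were not listed. None of 7 leukocyte markers was in the files. The part of these markers in the differences of GUCY1A1 and EDN1 was not tested.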

How the data were processed

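Total RNA was sequenced on day 5 from growth medium (n = 2) and hypertrophic medium (n = 3). Per the paper's methods, the authors trimmed the reads, aligned them to hg19 with HISAT2, counted known NCBI transcripts with StringTie, left out any gene counted 0 in some library, and deposited log2-transformed, RLE-normalized values. The submitters' processing notes instead name TopHat2 2.0.13, Cuffdiff 2.2.1 and the rat build rn5. Of the 2694 symbols, 2655 matched human RefSeq symbols or synonyms. The transformation is not described further, so differences are given as log2 and not as folds of counts, and read depth is unknown, so no counting error was given.

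The members and gene lists were chosen with earlier results of these data known. The comparison used limma 3.58.1 under R 4.3.3 (eBayes with trend, no covariates, Benjamini-Hochberg over 2694 genes). It was run on simulated data in which most genes were unchanged. The listed genes had all been called different, so the simulation does not show how the calls behave here. Calls needed an adjusted p under 0.05 and a difference of at least 1. Named genes were both members, the NO, cyclase, natriuretic, cGMP and endothelin lists, called genes of the other lists, the 5 nearest genes and those within 1 Mb. Of the genes nearest to EDN1, 1 is not reported here. Other genes are named to complete a list. Alternatives were other scalings and thresholds, eBayes without trend, a filter on low values, a replicate block, and each library left out. Annotation was GENCODE 44 on GRCh37, and promoter windows came from RefSeq (GRCh38.p14).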

Additional observations from a re-analysis of the deposited data

How the results depend on the processing

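Of the named genes, only ERG reversed under an alternative that was run, at -0.037 with median centring (adjusted p = 0.795, limma). Median centring and quantile normalization moved GUCY1A1 to 2.56 and 2.55 and EDN1 to -3.13 and -3.13, by more than the replicate SD. These scalings rest on the listed genes alone, most of them higher in HM. GUCY1A1 minus EDN1 was 5.70 and 5.67, and median centring cannot move it, since it subtracts 1 constant from each library. With single libraries left out, GUCY1A1 ranged from 2.72 to 3.14, EDN1 from -2.86 to -2.73, and GUCY1A1 minus EDN1 from 5.45 to 6.00. The number of called pathway genes was 12 to 15 and that of all called genes 441 to 618, against 13 and 508. By an adjusted p under 0.05 alone (limma) 34 pathway genes and 2667 genes were called, with a difference of at least 2 also required 3 and 57, and among the 1347 genes above the median value 9 and 313. With the replicate block, GUCY1A1 was 2.72, EDN1 -2.73 and their difference 5.45, and 14 pathway genes and 620 genes were called. The replicate differences correlated at -0.0253 between the media, so the numbers do not pair the libraries, and HM replicate 3, alone in its block, adds nothing to that fit. The block ended the calls of the pathway genes PDE11A (0.80) and MME (-0.97) and brought PRKG2 (1.03), ARG2 (-1.07) and PTGER4 (1.15) past the size required. It also ended that of PDE7B (0.95) and brought in PDE4A (1.00), TAGLN (-1.04) and PDGFRB (1.01), as leaving out HM replicate 3 did. Of the 64 other named genes with a test, 51 kept their direction and their side of the threshold with median centring, and 57 did with quantile normalization. Precision rests on 2 and 3 libraries, and depth is unknown.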

Other observations

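The phosphodiesterases of the cGMP list are part of a larger family, whose other members were looked up after their values had been seen. In all, 9 cyclic nucleotide phosphodiesterase genes were in the files, of which 5 were called higher in HM and 1, PDE1C, was called lower, beside 11.8% and 7.05% of all listed genes. Among those specific for cAMP, PDE4B was 6.23 and 6.16 in GM and 8.14, 7.23 and 7.46 in HM, and rose by 1.41 (standard error 0.249, adjusted p = 0.000938, limma). PDE4D was 10.54 and 10.56 in GM and 11.66, 11.59 and 11.48 in HM, a rise of 1.03 (adjusted p = 0.000132, limma). PDE7B rose by 1.00 (1.0043 before rounding, adjusted p = 0.000808, limma), and PDE4A, with a difference of 0.90, did not reach the size required. PDE4D and PDE7B lost their calls under median centring (0.68 and 0.66) and quantile normalization (0.66 and 0.79), PDE4D also without HM replicate 1 (0.99), and PDE7B without GM replicate 1 (0.88), HM replicate 2 (0.95) or HM replicate 3 (0.95). PDE4A was past the size required without GM replicate 1 (1.01) or HM replicate 3 (1.00). No HM library of these 4 genes overlapped a GM library, as was true of 99.0% of all listed genes.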
